A study of Mus musculus with 7 samples.

Results

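The 9 genes described here make, carry, break down or respond to retinoic acid. They are the retinaldehyde dehydrogenases Aldh1a1, Aldh1a2 and Aldh1a3, the cytochrome P450 enzymes Cyp26a1 and Cyp26b1, the carrier proteins Crabp1 and Crabp2, the receptor gene Rarb and the response gene Rarres1. They were taken by symbol from the 23235 symbols of the deposited tables, and each was found as a single entry in every table. RNA was sequenced in 7 libraries from cultured fetal mouse kidneys of the C57BL/6 strain. In all 7 beta-catenin, which carries the canonical Wnt signal into the nucleus, was activated. In 3 libraries E2-2, an E protein transcription factor and the product of Tcf4, was also deleted, and 4 were E2-2 wildtype. No kidney with normal beta-catenin therefore enters the comparison. Pregnant mice were injected with tamoxifen at 10.5 days post coitum (2 mg per 40 g of body weight), and kidneys were dissected at that age and cultured for 3 to 4 days in a medium with transferrin, insulin and selenium. The sources used here do not give the Cre driver, the altered exons, the culture time of each library or whether libraries came from separate animals. P-values therefore cover the spread among these 7 samples alone, and that spread may be technical.

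Retinol is taken up by cells, oxidised to retinal by retinol dehydrogenases and then, irreversibly, to retinoic acid by the Aldh1a enzymes. Cyp26 enzymes oxidise retinoic acid to inactive products. Crabp proteins bind it in the cytosol, and heterodimers of retinoic acid receptors (Rar) and retinoid X receptors (Rxr) bind direct repeats in DNA and switch target genes when it is present. In the embryonic kidney the stroma makes retinoic acid through Aldh1a2, and receptors in stroma and ureteric bud keep the receptor tyrosine kinase gene Ret expressed at the bud tips, which drives branching.

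The promoters of Rarb and Cyp26a1 are shown because both hold the classical response element, a direct repeat with 5 letters between the half-sites (DR5), while their transcript levels, given below, were far apart. The sequences are RefSeq promoters on GRCm38.p6, the 250 bases before the transcription start, 5′ to 3′ on the strand of the gene, with the DR5 match in capitals. The Rarb window is chr14:16575477-16575726 on the minus strand, and the match runs from 53 to 37 bases before the start. The Cyp26a1 window is chr19:37697558-37697807 on the plus strand, and the match runs from 32 to 16 bases before the start on the opposite strand, where it reads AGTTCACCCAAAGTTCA.
Rarb: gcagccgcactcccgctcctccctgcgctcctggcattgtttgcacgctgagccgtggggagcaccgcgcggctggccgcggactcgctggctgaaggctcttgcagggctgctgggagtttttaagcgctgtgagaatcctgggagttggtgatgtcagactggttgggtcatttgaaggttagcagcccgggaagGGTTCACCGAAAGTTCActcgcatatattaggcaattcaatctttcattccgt
Cyp26a1: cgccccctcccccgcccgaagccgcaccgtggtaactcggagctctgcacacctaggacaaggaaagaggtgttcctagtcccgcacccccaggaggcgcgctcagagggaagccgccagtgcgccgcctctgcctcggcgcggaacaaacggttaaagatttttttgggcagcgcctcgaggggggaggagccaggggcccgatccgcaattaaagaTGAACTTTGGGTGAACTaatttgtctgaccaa

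The half-site AGGTCA was searched for, as were its variant AGTTCA, the variant GGGTCA and lastly GGTTCA, any pair of them in the same direction with 5, 2 or 1 letters between them (DR5, DR2 and DR1), on both strands of windows of 250 bases before to 50 after the start. DR5 was found in 32 of 32851 such windows (0.0974%), and in those of 2 of the 7 members that matched the table by symbol. These 2, Rarb and Cyp26a1, matched only through AGTTCA and GGTTCA, so the count depends on the half-sites chosen. It is a description, and enrichment was not tested. DR2 (0.268% of windows) and DR1 (0.222%) were found in none of the 7. The 7 are Aldh1a1, Aldh1a2, Cyp26a1, Cyp26b1, Crabp1, Rarb and Rarres1. Of the 31 symbols with a DR5 match, 4 passed the filter for testing, a mean of 1 FPKM or more: Rarb, the biliverdin reductase gene Blvrb, the B cell survival factor gene Tnfsf13b and the embryonic globin gene Hbb-y. Their differences between E2-2 deleted and E2-2 wildtype were 0.11, -0.09, -0.37 and -0.81 on the log2(FPKM + 1) scale, and 0 passed the limma test over all genes (1, Tnfsf13b, at an unadjusted p, 0.0414). A match describes letters in a window and is not evidence of binding.

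Levels are the authors' FPKM, a fragment count divided by transcript length and library total, so they can be compared between genes. Numbers of fragments were inferred from the deposited interval of each FPKM, and the inferred depth was 14.5 to 26.6 mega-fragments per library. Deleted replicate 2 stood apart from the other libraries: it had the lowest value of the 7 in 44.4% of tested genes, and wildtype replicate 3 in 21.4%. The defining gene of nephron progenitors, Six2, was at 2.69 FPKM in deleted replicate 2 and at 29.0 to 74.8 FPKM in the other 6, and 6 of the 7 nephron progenitor markers had their lowest value there. Stromal markers were mixed in that library: 3 of 6 had their lowest value (Foxd1, Meis1 and Tcf21), while Pdgfra had its highest. Markers of kidney stroma, ureteric bud and nephron progenitors were all present at a mean of at least 1 FPKM (6 of 6, 7 of 7 and 7 of 7 genes). Tcf4 was at 33.5 to 42.0 FPKM in the deleted and 28.7 to 58.1 FPKM in the wildtype libraries, and a whole-gene value cannot check the loss of part of a gene. The deposited names of deleted replicate 3 and wildtype replicates 3 and 4 begin with BM, the names of the remaining 4 begin with BI, and the sources used here do not explain the prefix.

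**Figure D1:**
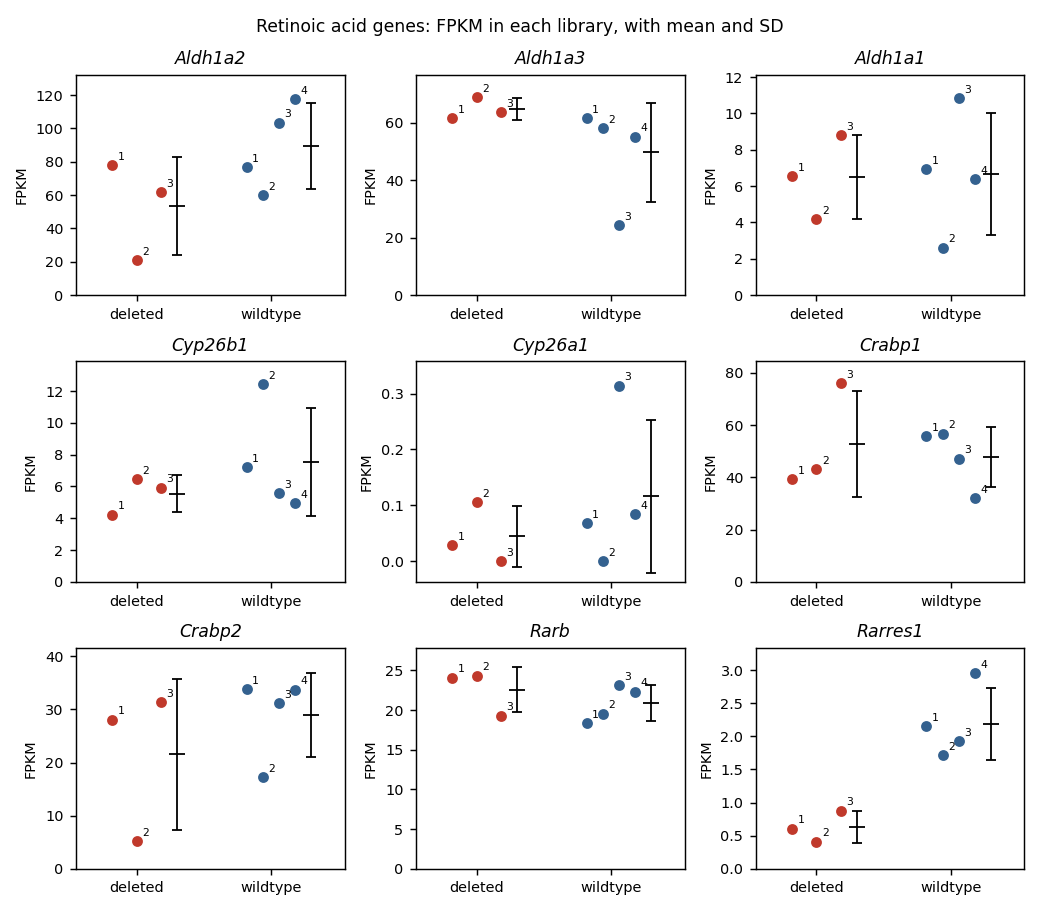
FPKM of the 9 retinoic acid genes (vertical axes, 1 panel per gene, each with its own scale) in 3 E2-2 deleted (red) and 4 E2-2 wildtype (blue) libraries, with replicate numbers; the bar beside each group is its mean and SD. The groups do not overlap for Rarres1 (0.411 to 0.879 against 1.71 to 2.96 FPKM) and, by a margin under the counting error, for Aldh1a3. Neither passed adjustment over all genes (limma adjusted p = 0.795). Deleted replicate 2 lies far below the other libraries for Aldh1a2 (20.9 FPKM) and Crabp2 (5.22 FPKM).

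The mean level over all 7 libraries ran from 74.1 FPKM for Aldh1a2 to 0.0858 FPKM for Cyp26a1. Between them came Aldh1a3 (56.2 FPKM), Crabp1 (50.0 FPKM), Crabp2 (25.8 FPKM), Rarb (21.6 FPKM), Cyp26b1 (6.68 FPKM), Aldh1a1 (6.61 FPKM) and Rarres1 (1.52 FPKM). The ranges over libraries of neighbours in this order overlapped except between Rarb and Cyp26b1 and between Rarres1 and Cyp26a1. Of the 9 genes, 8 passed the filter of a mean of at least 1 FPKM and entered the test; Cyp26a1 did not.

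Between the genotypes, Rarres1 was lower in every deleted library and no other member had an unadjusted limma p under 0.05. With limma, 0 of the 8 tested members passed an adjusted p of 0.05, as did 0.0% of the 13469 genes tested. At an unadjusted p under 0.05 there was 1 lower member, Rarres1, where 1.2% of all genes were lower and 3.29% higher at that p, and 0 higher members. The differences of the 8 were positive for 4 and negative for 4, with a median of -0.14. For all genes tested, the median was -0.05 and 39.3% of differences were positive. The smallest adjusted p over the members was 0.795. These and all later differences are deleted minus wildtype on the log2(FPKM + 1) scale.

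Rarres1 encodes a membrane protein first described as induced by a synthetic retinoid in skin, and it is known as a retinoid response gene. As deposited, its locus is chromosome 3, 67282808 to 67319445. Its level was 0.604, 0.411 and 0.879 FPKM in deleted replicates 1 to 3 and 2.16, 1.71, 1.93 and 2.96 FPKM in wildtype replicates 1 to 4. The highest deleted library was below the lowest wildtype library, and the groups did not overlap, as in 2.05% of all genes tested in this direction. The means were 0.631 ± 0.235 FPKM (SD, n = 3) and 2.19 ± 0.543 FPKM (SD, n = 4), a ratio of wildtype to deleted of 3.47.

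These values of Rarres1 rest on few molecules. Inferred fragments numbered 16, 9 and 26 in deleted replicates 1 to 3, against 49, 31, 61 and 81 in wildtype replicates 1 to 4, a total of 51 against 222. The deposited interval of deleted replicate 3 reached up to 1.22 FPKM and that of wildtype replicate 2 reached down to 1.10 FPKM, so that these intervals, which cover counting error, overlapped. The difference on the log2(FPKM + 1) scale was -0.96 (SE 0.20, 95% confidence interval -1.42 to -0.50; limma unadjusted p = 0.00139, adjusted p = 0.795). By unadjusted p it ranked 17 among the 13469 genes, and the exact 2-sided permutation p was 0.0286, the smallest that 3 against 4 libraries can give. The BI libraries gave -0.96 and the BM libraries -0.86, and the value was also -0.86 without deleted replicate 2. Because the level is near the added 1 FPKM, the scale understates the difference: with 0.1 FPKM added in place of 1 it was -1.67 (adjusted p = 0.794). The summed nephron progenitor markers were, like Rarres1, lowest in deleted replicate 2 (74.1 FPKM) and highest in wildtype replicate 4 (379 FPKM), though their ranges overlapped between the genotypes, and their part in the result was not tested. The difference of Rarres1 in these libraries was already known when the 9 genes were chosen, so it is given as a description.

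**Figure D2:**
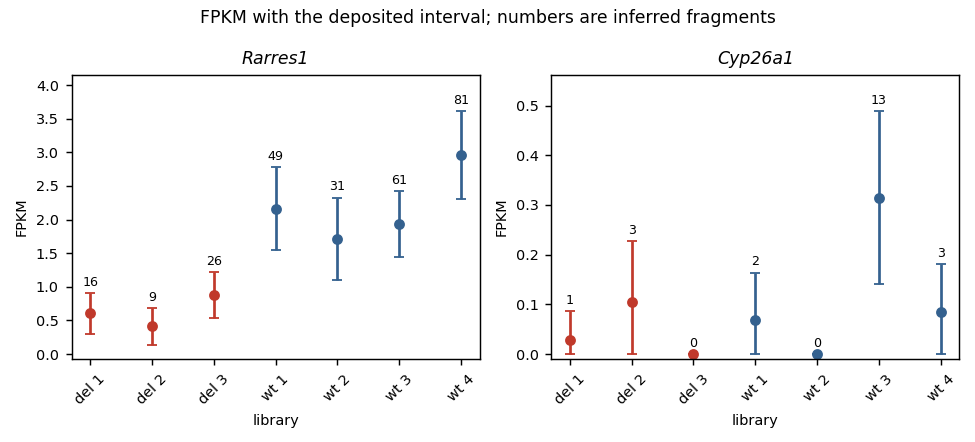
FPKM (vertical axes) of Rarres1 and Cyp26a1, the members of lowest level, in each E2-2 deleted (del, red) and E2-2 wildtype (wt, blue) library; bars are the deposited intervals and the number above each is the inferred fragments. Rarres1 has 9 to 26 fragments in the deleted and 31 to 81 in the wildtype libraries, and Cyp26a1 has 13 in wildtype replicate 3 and 3 or fewer elsewhere.

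Rarb encodes retinoic acid receptor beta, whose own gene is switched on by retinoic acid through the DR5 element printed above. Its deposited coordinates are chromosome 14, 17263354 to 17407724. In deleted replicates 1 to 3 the level was 24.1, 24.3 and 19.3 FPKM, against 18.4, 19.5, 23.2 and 22.3 FPKM in wildtype replicates 1 to 4. The groups overlapped, and Rarb was the member that varied least, with a ratio of 1.32 between its highest and lowest library. The means were 22.6 ± 2.83 FPKM (SD, n = 3) and 20.9 ± 2.26 FPKM (SD, n = 4), and the log2 difference was 0.11 (SE 0.13; 95% interval from -0.18 to 0.40); the limma adjusted p was 0.821 and the exact permutation p was 0.429. The sign differed between the prefixes, at 0.34 within BI and -0.23 within BM. The difference was 0.21 without deleted replicate 3 and 0.05 without wildtype replicate 1.

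Cyp26a1, the other gene with the DR5 element and the enzyme that is induced most readily by excess retinoic acid in many embryonic tissues, was close to the limit of detection. On chromosome 19 it spans 37772298 to 37776026 as deposited. FPKM values of deleted replicates 1 to 3 were 0.0291, 0.105 and 0, against 0.0678, 0, 0.315 and 0.0837 FPKM in wildtype replicates 1 to 4, which corresponds to 1, 3 and 0 against 2, 0, 13 and 3 inferred fragments. A count of 0 allows up to 3 fragments, a limit that covers counting error only. The groups overlapped (exact permutation p = 0.571), and wildtype replicate 3 alone held 13 of the 18 wildtype fragments. No difference was detectable at this depth.

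Its relative Cyp26b1, which restricts retinoic acid in limb, gonad and other mesenchyme, carried nearly all of the Cyp26 transcript. The deposited locus is chromosome 6, 84521408 to 84543902. Deleted replicates 1 to 3 had 4.24, 6.45 and 5.91 FPKM, against 7.20, 12.4, 5.58 and 4.94 FPKM in wildtype replicates 1 to 4. The groups overlapped, and wildtype replicate 2 was the highest of the 7. The means were 5.54 ± 1.16 FPKM (SD, n = 3) and 7.54 ± 3.39 FPKM (SD, n = 4), with a log2 difference of -0.33 (SE 0.29; 95% interval from -0.99 to 0.34); the limma adjusted p was 0.795 and the exact permutation p was 0.429. The difference was -0.75 within BI and 0.15 within BM, -0.08 without wildtype replicate 2 and -0.17 without deleted replicate 1. Cyp26c1, the third enzyme of the family, was at a mean of 0 FPKM in the deleted and 0.0180 FPKM in the wildtype libraries.

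Aldh1a2 encodes the main retinoic acid synthesising enzyme of embryonic mesoderm, in the kidney of the stroma and of the mesothelium that covers the organ. Its deposited coordinates are chromosome 9, 71063596 to 71144050. In deleted replicates 1 to 3 the level was 77.8, 20.9 and 61.7 FPKM, against 76.7, 59.9, 104 and 118 FPKM in wildtype replicates 1 to 4. Deleted replicate 2 was by far the lowest, deleted replicates 1 and 3 lay within the wildtype range, and the groups overlapped. The means were 53.5 ± 29.3 FPKM (SD, n = 3) and 89.5 ± 26.0 FPKM (SD, n = 4).

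The difference of Aldh1a2 was -0.88 (SE 0.44; 95% interval from -1.90 to 0.15). The limma adjusted p was 0.795 and the exact permutation p 0.200. The difference was -0.73 within BI and -0.83 within BM. It was -0.32 without deleted replicate 2, and -1.24 without deleted replicate 1, where its unadjusted limma p was 0.0294 (adjusted p = 0.430). The inferred fragments were 773 in deleted replicate 2 and 1830 to 5594 in the other libraries. For a library with the mean fragment number of its group, the counting error was 2.02% (deleted) and 1.59% (wildtype). That was far under the variation between libraries (54.9% and 29.1% of the mean). In bulk samples, fewer cells of a type and less RNA per cell cannot be told apart.

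Several marker levels were also extreme in deleted replicate 2, some with Aldh1a2 and some in the opposite direction. The summed nephron progenitor markers were at 74.1 FPKM there, against 177 to 379 FPKM in the other 6 libraries. The summed stromal markers were at 277 FPKM there against 296 to 384 FPKM elsewhere, but its genes did not move together: Foxd1 was at 2.30 against 12.0 to 26.7 FPKM elsewhere, and Pdgfra at 69.7 against 42.7 to 60.9 FPKM. The summed markers of mesothelium, 2 of 4 of them at a mean of at least 1 FPKM, were the highest there, at 21.8 FPKM, and at 0.814 to 11.2 FPKM elsewhere. The part of these markers in the Aldh1a2 result was not tested.

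Aldh1a3, the enzyme of the ureteric bud and of several embryonic epithelia, was lowest in a different library. On chromosome 7 it spans 73535779 to 73572363 as deposited. FPKM values of deleted replicates 1 to 3 were 61.6, 68.9 and 63.8, against 61.6, 58.1, 24.3 and 55.2 FPKM in wildtype replicates 1 to 4. Every deleted library was above every wildtype library, as in 2.84% of all genes tested, but deleted replicate 1 exceeded wildtype replicate 1 by less than the counting error. The means were 64.8 ± 3.75 FPKM (SD, n = 3) and 49.8 ± 17.2 FPKM (SD, n = 4), and the log2 difference was 0.46 (SE 0.31; 95% interval from -0.25 to 1.16); the limma adjusted p was 0.795 and the exact permutation p was 0.200.

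Without wildtype replicate 3 the difference of Aldh1a3 was 0.15. Within the BI libraries it was 0.12, and within BM, which holds that library, 0.78. Ureteric bud markers were low in the same library, with a summed level of 54.8 FPKM against 61.1 to 159 FPKM in the other 6. The epithelial cadherin gene Cdh1 was at 8.30 FPKM there and at 23.5 to 36.6 FPKM elsewhere, and the bud factor gene Gata3 at 4.31 against 11.0 to 15.4 FPKM; with Ret, these were the 3 of 7 bud markers lowest there. Deleted replicate 2, also low in the summed bud markers (61.1 FPKM), had the highest Aldh1a3. The summed urothelium markers shared both extreme libraries with Aldh1a3, at 2.66 FPKM in wildtype replicate 3 and 52.2 FPKM in deleted replicate 2. Elsewhere they were at 14.4 to 34.0 FPKM, in another order than Aldh1a3. Deleted replicate 3 had the 14.4 FPKM, and its Aldh1a3, at 63.8 FPKM, was above every wildtype library. The mesothelium sum had the same lowest and highest libraries (0.814 and 21.8 FPKM), also with another order between them. It was 5.49 FPKM in wildtype replicate 4, above 4.69 FPKM in deleted replicate 1. The summed markers of endothelium (153 FPKM) and neural crest derivatives (5.89 FPKM) were also lowest in wildtype replicate 3. The part of these markers in the Aldh1a3 result was not tested.

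Aldh1a1, an enzyme of the same reaction found in many adult epithelia, was the least abundant of the 3 synthesising enzymes. The deposited locus is chromosome 19, 20676472 to 20717952. Deleted replicates 1 to 3 had 6.54, 4.17 and 8.80 FPKM, against 6.92, 2.62, 10.8 and 6.38 FPKM in wildtype replicates 1 to 4. The wildtype libraries spanned the whole deleted range. The means were 6.50 ± 2.32 FPKM (SD, n = 3) and 6.68 ± 3.36 FPKM (SD, n = 4), and the log2 difference was 0.04 (SE 0.39; 95% interval from -0.88 to 0.95); the limma adjusted p was 0.978 and the exact permutation p was 0.971. The difference was -0.29 without wildtype replicate 2, -0.18 without deleted replicate 3 and 0.28 without wildtype replicate 3.

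The mix of the 3 enzymes differed more between libraries than their sum. Deleted replicates 1 to 3 summed to 146, 94.0 and 134 FPKM, and wildtype replicates 1 to 4 to 145, 121, 139 and 179 FPKM. Aldh1a2 made up 53.3%, 22.2% and 46.0% of it in the former and 52.8%, 49.7%, 74.7% and 65.6% in the latter. Deleted replicate 2 had the smallest share of Aldh1a2 and wildtype replicate 3 the largest, and the groups overlapped. The mean share was 40.5% ± 16.2 (SD, n = 3) against 60.7% ± 11.6 (SD, n = 4; exact permutation p = 0.114). Among 7 such sums, shares and ratios of members this was the smallest p, and 0.500 after Benjamini-Hochberg adjustment over the 7. The ratio of summed Aldh1a to Cyp26b1 was 14.6 to 34.5 in the deleted and 9.71 to 36.3 in the wildtype libraries (exact permutation p = 0.857). It sets transcripts for synthesis against those of a breakdown enzyme, and gives no measure of retinoic acid itself.

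**Figure D3:**
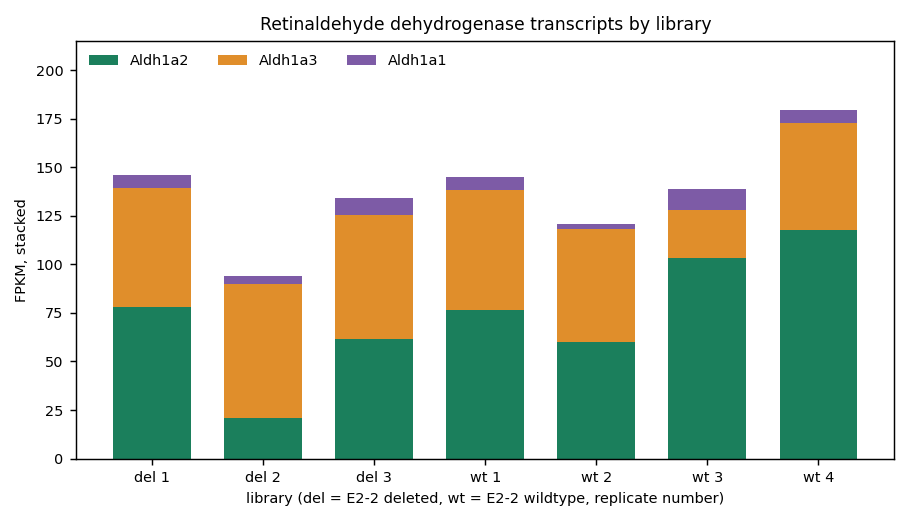
Stacked FPKM (vertical axis, from 0) of Aldh1a2, Aldh1a3 and Aldh1a1 in each E2-2 deleted (del) and E2-2 wildtype (wt) library. Aldh1a2 is 22.2% of the stack in deleted replicate 2 and 74.7% in wildtype replicate 3, and Aldh1a1 is at most 7.81% in any library.

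Crabp2 encodes the carrier that hands retinoic acid to its receptors, and its gene is itself a known target of them. Its deposited coordinates are chromosome 3, 87752615 to 87757294. In deleted replicates 1 to 3 the level was 28.1, 5.22 and 31.3 FPKM, against 33.8, 17.3, 31.1 and 33.7 FPKM in wildtype replicates 1 to 4. Deleted replicate 2 was the lowest and wildtype replicate 2 the next, and the remaining 5 libraries lay between 28.1 and 33.8 FPKM. The means were 21.5 ± 14.2 FPKM (SD, n = 3) and 29.0 ± 7.90 FPKM (SD, n = 4). The difference was -0.69 (SE 0.56; 95% interval from -1.99 to 0.62). The limma adjusted p was 0.795 and the exact permutation p 0.486. Without deleted replicate 2 the difference was 0.081. The BI libraries, which hold both low ones, gave -0.91 and the BM libraries -0.05.

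Crabp1, the carrier linked to the breakdown of retinoic acid and found in embryonic mesenchyme and neural crest, did not share this pattern. On chromosome 9 it spans 54612615 to 54620916 as deposited. FPKM values of deleted replicates 1 to 3 were 39.3, 43.2 and 76.0, against 55.7, 56.7, 47.2 and 32.0 FPKM in wildtype replicates 1 to 4. Deleted replicate 3 was the highest of the 7, wildtype replicate 4 the lowest, and the groups overlapped. The means were 52.8 ± 20.2 FPKM (SD, n = 3) and 47.9 ± 11.4 FPKM (SD, n = 4), and the log2 difference was 0.11 (SE 0.28; 95% interval from -0.53 to 0.75); the limma adjusted p was 0.913 and the exact permutation p was 0.771. The BI libraries gave -0.44 and the BM libraries 0.95; the value was -0.18 without deleted replicate 3, -0.07 without wildtype replicate 4 and 0.29 without deleted replicate 1. The summed markers of neural crest derivatives, 6 of 6 of them at a mean of at least 1 FPKM, were also highest in deleted replicate 3. They were at 70.6 FPKM there and at 5.89 to 37.7 FPKM elsewhere, in another order than Crabp1. Their lowest sum was in wildtype replicate 3, where Crabp1 was at 47.2 FPKM. The part of these markers in the Crabp1 values was not tested. The ratio of Crabp1 to Crabp2 was 8.28 in deleted replicate 2 and 0.951 to 3.28 in the other libraries.

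**Figure D4:**
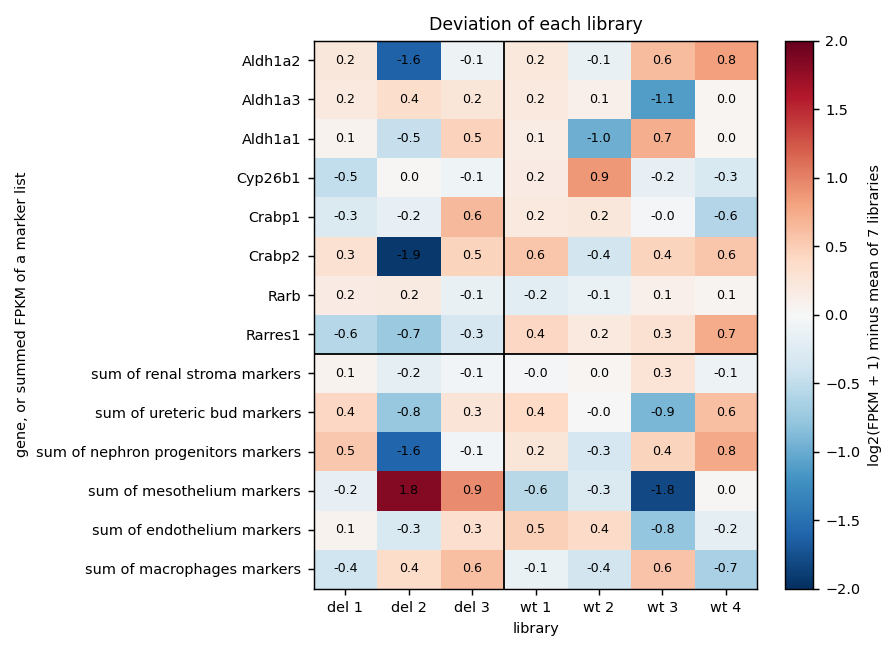
Deviation of each library from the mean of the 7 on the log2(FPKM + 1) scale (colour and printed value) for the 8 tested members, above the line, and for the summed FPKM of 6 marker lists, below it. Columns are E2-2 deleted (del) and E2-2 wildtype (wt) libraries. Aldh1a2, Crabp2, Rarres1 and the sums of renal stroma and nephron progenitor markers have their lowest value in deleted replicate 2. Aldh1a3 is lowest in wildtype replicate 3.

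Pairs of members followed each other to different degrees over the 7 libraries. As a description, Pearson's r on the log2(FPKM + 1) scale (n = 7 libraries) was highest for Aldh1a2 with Crabp2, at 0.93, and lowest for Crabp1 with Rarb, at -0.72. Deleted replicate 2 was the lowest library for both Aldh1a2 and Crabp2, and without it their r was 0.58 (n = 6 libraries). The order of pairs also differed without it, with Aldh1a1 and Crabp2 highest at 0.85 and Aldh1a2 and Crabp1 lowest at -0.80. Among 9777 genes (9778 for Rarres1) with a mean of at least 5 FPKM, those most like Aldh1a2 were the replication licensing gene Cdt1 and the proliferation gene Cdca7 (r = 0.998 for both; deleted replicate 2 was the lowest for both, at 9.50 and 12.7 FPKM). Those most like Crabp2 were the mitotic gene Ckap2l and the ubiquitin ligase gene Siah1a (r = 0.998 and 0.996), and those most like Aldh1a3 were the fucosidase gene Fuca2 and the mitochondrial creatine kinase gene Ckmt1 (r = 0.997 and 0.995). For the others the closest genes were Tmem219 and Aldh2 for Aldh1a1 (r = 0.98 and 0.97), the metallothionein gene Mt2 and Cd109 for Cyp26b1 (0.96 and 0.95), Kctd12 and Gpr137b for Crabp1 (0.96 and 0.94), Zadh2 and Pi4k2a for Rarb (0.95 and 0.94), and Dcun1d2 and Zc3h8 for Rarres1 (0.93 for both). Without wildtype replicate 3 the r of Aldh1a3 was 0.93 with Fuca2 and 0.92 with Ckmt1 (n = 6 libraries). Without wildtype replicate 2 the r of Cyp26b1 was 0.87 with Mt2 and 0.99 with Cd109. Without deleted replicate 2 the r of Aldh1a2 was 0.99 with both Cdt1 and Cdca7. All of these values share the same 7 libraries, and the closest genes were picked for the highest r, which makes a high r likely by selection.

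Beyond the 9, a list of 50 other genes of the pathway was read by role, and 36 of them were tested. By limma 0 passed an adjusted p of 0.05 and 1, Stra6, had an unadjusted p under 0.05, beside 4.49% of all genes in either direction. The differences were positive for 18 and negative for 18, with a median of -0.00. Over all genes tested, 39.3% of differences were positive and the median was -0.05. The 14 that were not tested had means under 1 FPKM, among them the meiotic response gene Stra8, at 0 FPKM in all 7 libraries, and the storage enzyme gene Lrat.

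Stra6 encodes the membrane receptor that takes up retinol from its serum carrier, and its gene responds to retinoic acid in cultured cells. Deleted replicates 1 to 3 had 28.4, 68.0 and 27.7 FPKM, against 18.4, 19.9, 9.12 and 14.8 FPKM in wildtype replicates 1 to 4. Every deleted library was above every wildtype library, as in 2.84% of all genes tested, and deleted replicate 2 was the highest. The means were 41.4 ± 23.0 FPKM (SD, n = 3) and 15.5 ± 4.79 FPKM (SD, n = 4). Stra6 differed by 1.28 (SE 0.37; 95% interval from 0.44 to 2.13; limma unadjusted p = 0.00836, adjusted p = 0.795, exact permutation p = 0.0286, the smallest possible). The BI libraries gave 1.16 and the BM libraries 1.19, and the value was 0.87 without deleted replicate 2. As for Aldh1a3, the summed markers of mesothelium and urothelium were highest in deleted replicate 2 and lowest in wildtype replicate 3, as was Stra6. Between these ends the order differed from that of Stra6 for both lists. The mesothelium sum was 4.69 FPKM in deleted replicate 1, under 5.49 FPKM in wildtype replicate 4. The urothelium sum in deleted replicate 3 was 14.4 FPKM, under 20.4, 29.6 and 34.0 FPKM in wildtype replicates 1, 2 and 4. The part of these markers in the Stra6 difference was not tested. Among the other genes of retinol uptake, the endocytic receptor gene Lrp2 differed by -0.39 (SE 0.47) and the serum carrier gene Rbp4 by -0.06 (SE 0.27).

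None of the 11 tested genes for enzymes between retinol and retinal had an unadjusted limma p under 0.05. Rdh10, the retinol dehydrogenase needed for retinoic acid synthesis in the embryo, was at 29.9 ± 1.87 FPKM (SD, n = 3) against 28.8 ± 4.03 FPKM (SD, n = 4). Dhrs3, a retinal reductase that is a known response gene, was at 73.0 ± 10.7 against 80.2 ± 26.7 FPKM. In this group of 14 genes, 11 were tested, 5 with a positive and 6 with a negative difference, and the smallest unadjusted p was that of Dhrs4, with -0.30 (SE 0.17; -0.099 without deleted replicate 2, limma unadjusted p = 0.121 and adjusted p = 0.795). Of the carriers to another receptor, Ppard, a nuclear receptor gene, differed by 0.10 (SE 0.12; 0.04 without deleted replicate 2, and -0.060 with a weight per library) and the fatty acid carrier gene Fabp5 by -0.01 (SE 0.28).

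Among the other receptors, Rara was at 15.9 ± 2.03 FPKM (SD, n = 3) against 18.5 ± 1.40 FPKM (SD, n = 4), with a difference of -0.21 (SE 0.11; limma adjusted p = 0.795). It was -0.13 without deleted replicate 2. Rarg was at 32.1 ± 7.60 against 29.4 ± 5.71 FPKM, Rxra at 21.1 ± 1.21 against 20.1 ± 1.21 FPKM and Rxrb at 25.7 ± 3.60 against 28.9 ± 2.68 FPKM, so that Rara, Rarb, Rarg, Rxra and Rxrb all had means between 15.9 and 32.1 FPKM in both genotypes. Rxrg was at 0.243 against 0.249 FPKM. Of 7 coregulators, 5 had positive and 2 negative differences, led by the corepressor gene Nrip1, with 0.31 (SE 0.15; 0.17 without deleted replicate 2, limma adjusted p = 0.795).

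Other genes known to respond to retinoic acid had no common direction. Of 12 in this group 8 were tested, 4 with a positive and 4 with a negative difference and a median of -0.02. The orphan receptor gene Nr2f2 had the smallest p of them, at 69.5 ± 15.4 FPKM (SD, n = 3) against 85.7 ± 7.47 FPKM (SD, n = 4), a difference of -0.32 (SE 0.16; limma adjusted p = 0.795; -0.16 without deleted replicate 2). Ret, the bud tip receptor kept on by retinoic acid from the stroma, had 6.73, 4.85 and 9.73 FPKM in deleted replicates 1 to 3, against 11.7, 4.64, 2.00 and 7.36 FPKM in wildtype replicates 1 to 4. The groups of Ret overlapped, and its lowest value was in wildtype replicate 3, as for Aldh1a3.

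**Figure D5:**
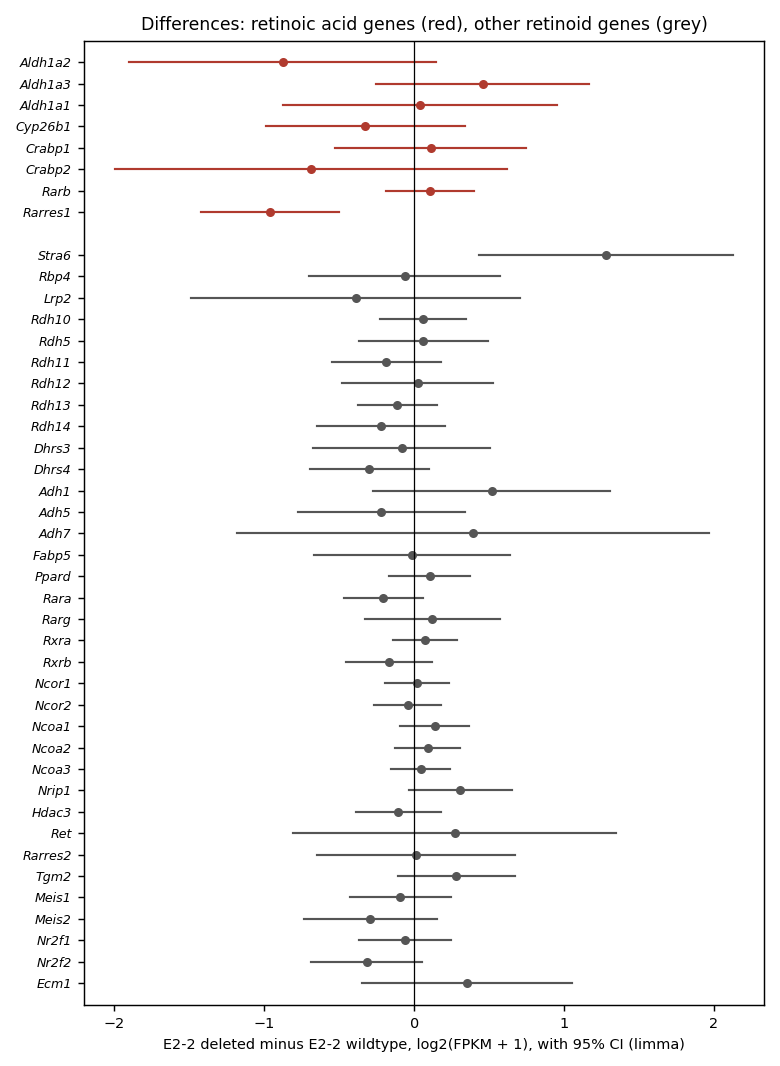
Difference between E2-2 deleted and E2-2 wildtype libraries on the log2(FPKM + 1) scale (horizontal axis), with limma's 95% confidence interval, for the 8 tested retinoic acid genes (red) and 35 other tested genes of the pathway (grey). The intervals of Rarres1 (-1.42 to -0.50) and Stra6 (0.44 to 2.13) lie to opposite sides of 0; neither gene passed adjustment over all genes (adjusted p = 0.795).

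Marker lists of the remaining cell types were read for the same libraries. Summed levels in the deleted and wildtype libraries were 52.3 to 73.1 and 42.4 to 114 FPKM for podocytes, 211 to 328 and 153 to 365 FPKM for endothelium, 47.3 to 95.5 and 39.5 to 93.9 FPKM for macrophages, 14.4 to 52.2 and 2.66 to 34.0 FPKM for urothelium, and 1.23 to 6.12 and 0.808 to 1.50 FPKM for gonad and germ cells. All of these ranges overlapped between the genotypes, and 0 tested genes of any marker list passed the adjusted limma test. The ranges of mesothelium also overlapped, at 4.69 to 21.8 FPKM in the deleted and 0.814 to 5.49 FPKM in the wildtype libraries.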

How the data were processed

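RNA of 7 libraries (3 E2-2 deleted, 4 E2-2 wildtype) was analysed. Per the file headers, each library's table as deposited holds FPKM by gene with lower and upper bounds. The submitters' processing notes list Cufflinks 2.0.2, TopHat2 2.0.4 and CASAVA 1.8.2 but no roles. Build and annotation were not given in the sources used here, so deposited coordinates carry no build and are printed counted from 1. Fragments were inferred as the square of 2 times the FPKM over the distance to the upper bound; 79.0% to 80.3% of values under 300, at genes with a single start, lay within 0.05 of a whole number (10% by chance).

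In deleted replicate 2, 25 symbols had become dates and were taken from another table by entry. Entries of a symbol were summed, and symbols with a failed or low-data status or a locus under 200 bases were left out. Of 22363 genes, 13469 had a mean of 1 FPKM or more and were tested as log2(FPKM + 1), without further scaling, with limma 3.58.1 in R 4.3.3 (empirical Bayes with a trend, 2-sided; p adjusted by Benjamini-Hochberg across the 13469, threshold 0.05), checked on simulated data. An exact permutation test (2-sided, 35 splits) was run on single values. The fit planned for counts was not run. Replicate numbers follow the order of deposit.

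The members and lists were chosen with earlier results of these data known. Named genes are the 9 members, the genes of each pathway role with an unadjusted p under 0.05 or else the smallest p, and the 2 most like genes of each member; Blvrb, Tnfsf13b, Hbb-y, Lrp2, Rbp4, Rdh10, Dhrs3, Fabp5, Ret, the other receptors and the low genes were named in addition, for their roles or to account for a small count. Muc16 of the mesothelium list was not matched, and 1 gene of the pathway list is counted but not reported here. Alternatives were other pseudocounts, filters and scalings, library weights, the name prefix as a term, and leaving out each library.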

Additional observations from a re-analysis of the deposited data

Results flagged for a closer look

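Among 15 genes (the 9 members and 6 named pathway genes), the 4 wildtype libraries were checked for a value far from the other 3, and 2 were found; chance gives about 1 in 20 groups. Aldh1a3 was at 24.3 FPKM in wildtype replicate 3, against 55.2 to 61.6 FPKM in the other 3. Crabp2 was at 17.3 FPKM in wildtype replicate 2, against 31.1 to 33.8 FPKM. The deleted group of 3 was too small for this check.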

How the results depend on the processing

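With limma, 0 members and 0 pathway genes passed the adjusted threshold under every alternative run. Over all genes the count was 0, except 1 with no filter (Ndufs5) and 1 with a weight per library (9130015A21Rik), both named after their values were seen. The count at an unadjusted p under 0.05 was 605, and 1000 with no filter, 394 at a mean of at least 5 FPKM, 1141 with a weight per library, and 250 to 1473 when 1 library was left out (250 without deleted replicate 2, 336 without wildtype replicate 4, 1473 without deleted replicate 1). Among the 9 members that count was 1, and 1 to 2 when 1 library was left out (2 without deleted replicate 1, with Aldh1a2 added); at a mean of at least 5 FPKM it was 0, since Rarres1 was then not fitted. Of the calls at an unadjusted p, 73.2% were higher (443 higher, 162 lower). That share was 64.0% with quantile normalization (399, 224), 56.6% without deleted replicate 1 (834, 639), 58.5% without deleted replicate 3 (325, 231) and 82.0% without deleted replicate 2 (205, 45). The r of Aldh1a2 with Crabp2 was 0.58 to 0.97 when 1 library was left out, an alternative chosen after seeing the data.

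Aldh1a2, Aldh1a3, Rarres1 and Stra6 kept their sign under all alternatives, with values from -1.24 to -0.32, 0.12 to 0.78, -1.67 to -0.83 and 0.77 to 1.50. Signs turned for Aldh1a1 (-0.18 without deleted replicate 3, -0.29 without wildtype replicate 2), Crabp1 (-0.18 without deleted replicate 3, -0.07 without wildtype replicate 4, -0.44 within BI), Crabp2 (0.081 without deleted replicate 2), Cyp26b1 (0.15 within BM), Rarb (-0.23 within BM) and Ppard (-0.060 with a weight per library). The cause was not tested. Leaving out 1 library gave -0.29 to 0.28 for Aldh1a1, -0.18 to 0.29 for Crabp1 and -1.11 to 0.081 for Crabp2. No scaling moved the median difference of all genes by over 0.1. No paired analysis was possible because the labels give no shared replicate numbers. Depth limits Rarres1 and Cyp26a1 most, with counting errors of 11.1% to 33.3% per library for Rarres1.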
